A study of Mus musculus with 96 samples.

Results

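The genes described here encode nuclear-encoded subunits of the mitochondrial respiratory chain complexes I, III and IV and of the ATP synthase, in mouse bone marrow dendritic cells stimulated through Toll-like receptors (TLRs). Members were the genes whose symbol starts with Nduf, Uqcr or Atp5, or with Cox and a digit of 4 to 8, and whose intensity passed the lower limit of 20 on any array. The limit left 74 of 77 such genes among 7741 named genes tested, since Cox4i2, Cox6b2 and Cox7a1 were at 20 on every array. They comprised 33 subunits of complex I, 4 complex I assembly factors, 7 subunits of complex III, 13 of complex IV and 17 of the ATP synthase. Total RNA of primary bone marrow dendritic cells was measured on 96 one-colour Affymetrix arrays. The stimuli carried the labels Lps, Pic, Pam, Cpg and Grd, which the labels do not spell out and which in this study are known as lipopolysaccharide (a TLR4 ligand), poly(I:C) (TLR3), a lipopeptide (TLR2), CpG DNA (TLR9) and gardiquimod (TLR7). Each stimulus had 2 arrays at each of 9 times, 0.5, 1 and 2 h, then 4, 6 and 8 h, then 12, 16 and 24 h, apart from Cpg with 1 array at 16 h and 1 at 24 h. The 8 Control arrays were taken at 0, 1, 2, 4, 6, 8, 12 and 24 h. The labels name no strain, genotype, sex, age or dose, and no group other than Control without a stimulus. They do not say that arrays of 1 group came from separate cultures, so the p-values below measure only the spread between arrays.

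Complex I takes electrons from NADH, complex II from succinate, and both pass them through ubiquinone to complex III, cytochrome c and complex IV, which reduces oxygen. Complexes I, III and IV pump protons, and the ATP synthase uses the resulting gradient to make ATP. Most subunits are encoded in the nucleus and a few core subunits in mitochondrial DNA, which are not among these genes. Dendritic cells and macrophages are known to raise glycolysis after TLR stimulation, and nitric oxide and itaconate made by stimulated cells inhibit respiratory complexes at the protein level. The arrays measured mRNA, and neither respiration nor protein was measured here.

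The arrays agreed closely, with medians of 48.75 to 59.5 intensity units and correlations of 0.985 to 0.998 between the 2 arrays of a group. Dendritic cell markers were present, with 9 of 11 measured and a summed intensity of 27252 to 29466 in Control, while Clec9a and Siglech were not measured here. Array positions followed the design: each plate column held a single time for Lps, Pic, Pam and Grd, and the last columns held Cpg and Control. Position and time, or position and stimulus, cannot be told apart for those 4 ligands, whereas Cpg shared its columns, though mostly not its rows, with Control. In bulk RNA, fewer cells of a type and less RNA per cell cannot be told apart. Stimulated arrays were averaged over 3 windows, early (0.5, 1 and 2 h), middle (4, 6 and 8 h) and late (12, 16 and 24 h), each with 6 arrays a ligand (Cpg late, 4), and set against all 8 Control arrays. Differences are on the log2(intensity + 1) scale, stimulated minus Control, with the standard error (SE) of the limma fit. A call means an adjusted p under 0.05, with Benjamini-Hochberg adjustment over all 10543 items tested, which are named genes and unnamed probe sets.

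Respiratory chain genes were abundantly transcribed in Control cells, where 65 of the 74 had a mean intensity over 500 and 50 over 1000. Their median was 1363 intensity units, against 140 over all items. The highest Control intensities belonged to Cox6a1 (6054 ± 295, SD, n = 8), Atp5g3 (5495 ± 504), Cox4i1 (4668 ± 294) and Cox6b1 (4615 ± 290.2), though intensities of different probe sets are not a ranking of transcript numbers. Among complex I subunits the brightest probe sets were those of the small accessory subunits Ndufa1 (3393 ± 217), Ndufa3 (2844 ± 179) and Ndufv3 (1939.7 ± 147). In complex III they were those of the core protein gene Uqcrc2 (1681 ± 91.9), the Rieske iron-sulphur subunit gene Uqcrfs1 (1352 ± 70.0) and the accessory subunit gene Uqcr10 (1279.8 ± 97). The F1 stalk subunit gene Atp5c1 (3933 ± 124) and the membrane subunit gene Atp5j2 (4093 ± 286) followed Atp5g3 in the ATP synthase. The isoform genes known mainly from muscle (Cox6a2) and testis (Cox8c) were at or near the limit, with Cox6a2 at 20 on all 8 Control arrays and Cox8c at 27.6 ± 2.19. The 2 arrays of a group differed little for these genes, with a median SD of 0.0756 on the log2 scale against 0.116 over all items.

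Promoters of nuclear respiratory genes are known for binding sites of NRF1, of ETS-family factors (GABP, also called NRF2) and of YY1. RefSeq start sites of build GRCm38.p6 were matched for 61 of the 74 genes, from 250 bases before to 50 after the start. The NRF1 letters (GCGCA, any base, then GCGC) stood on either strand in 16 of these 61 promoters (26.2%, against 5.19% of all 27025 promoters), CCGGAAG (ETS family) in 14 (23%, against 9.93%) and AAGATGGCG (YY1) in 7 (11.5%, against 1.64%). None of the motifs contains another, 32 promoters held at least 1, and 5 held more than 1. The 250 bases before the start of Ndufaf4, the gene with the largest fall, are shown first with the NRF1 letters in capitals. The 30-base stretches after it, motif letters in capitals, belong to genes whose values are described below.
Ndufaf4, chr4:24897833-24898082, plus strand: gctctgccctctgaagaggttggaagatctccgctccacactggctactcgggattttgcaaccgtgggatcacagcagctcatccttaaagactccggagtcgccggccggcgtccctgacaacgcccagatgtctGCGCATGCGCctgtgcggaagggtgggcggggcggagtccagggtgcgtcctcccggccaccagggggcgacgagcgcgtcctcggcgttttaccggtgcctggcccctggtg
Ndufaf5, NRF1 letters, chr2:140170652-140170681, plus strand: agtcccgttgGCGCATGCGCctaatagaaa
Atp5g2, NRF1 letters, chr15:102671070-102671099, minus strand: ggctccggccGCGCATGCGCagagccttcc
Atp5o, NRF1 letters, chr16:91931602-91931631, minus strand: gctggcgcgcGCGCGTGCGCtctggcgcca
Uqcrc1, NRF1 letters, chr9:108936643-108936672, plus strand: cttccttacaGCGCTTGCGCctcagactcc
Ndufs8, ETS family letters, chr19:3912741-3912770, minus strand: ttaggctccgcCTTCCGGttgaaccgcatc
Uqcr11, ETS family letters, chr10:80406869-80406898, minus strand: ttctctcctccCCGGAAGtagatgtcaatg
Cox8a, ETS family letters, chr19:7217603-7217632, minus strand: tttccgaaataCTTCCGGctcgggcgtccg
Ndufs7, YY1 letters, chr10:80249463-80249492, plus strand: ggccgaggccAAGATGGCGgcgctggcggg
Ndufs4, YY1 letters, chr13:114388045-114388074, minus strand: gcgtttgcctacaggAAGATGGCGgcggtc
A match shows only that these letters are present. The median difference from Control, averaged over the ligands, was -0.30 in the middle window and -0.44 in the late window for the 16 genes with NRF1 letters, and -0.30 and -0.36 for the 45 without. The 14 genes with ETS letters had medians of -0.22 and -0.36, against -0.31 and -0.40 for the 47 without, and the 7 with YY1 letters had -0.23 and -0.39, against -0.30 and -0.36 for the 54 without.

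In the middle and late windows a majority of these genes were lower than Control with each of the ligands. Over the 5 ligands and 74 genes there are 370 pairs of a gene and a ligand, and in the middle window 304 pairs were lower than Control and 13 higher (82.2% lower). The background was 43.5% lower and 24.6% higher over all items. Late, 283 pairs were lower and 15 higher (76.5% lower), against 33.9% lower and 25.2% higher over all items. In the early window 130 pairs were lower and 38 higher, which is 35.1% lower and near the background of 30.2% (with 16.9% higher). That window averages unlike times. The members' median difference was 0.10 with Lps and 0.02 with Cpg at 0.5 h, -0.17 with Cpg at 1 h (68 of 74 genes below 0) and -0.21 with Lps at 2 h (66 below 0), where the medians over all items were 0.00, 0.00, -0.06 and -0.08. The split depends on the scaling. With each array centred on its own median the early calls were 68 lower and 81 higher (18.4% and 21.9%), against 22.4% and 29% of all items. The centred middle calls were 228 lower and 41 higher, against 32.8% and 41.1% of all items, and the centred late calls 273 lower and 20 higher, against 30.8% and 29.6%. The median over all items was itself shifted in the middle window, by -0.11 with Lps and -0.10 with Pic, and by less than 0.1 in size in the others. The members' medians there were -0.33 with Lps and -0.32 with Pic. With centred arrays they were -0.13 and -0.21, and those over all items 0.08 and 0.01.

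**Figure D1:**
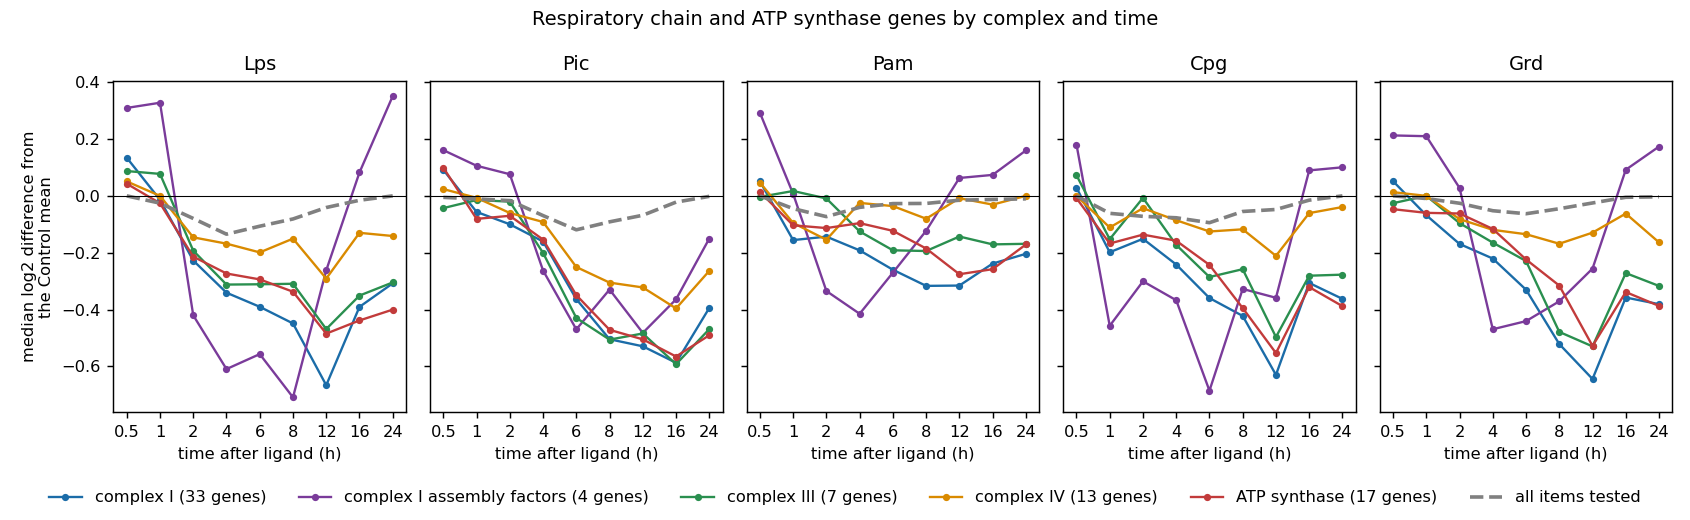
Median log2 difference from the Control mean over the genes of each complex (coloured lines, y axis) against time after stimulation in hours (x axis), with 1 panel per ligand and the median over all items as a dashed line. The complex I median at 12 h was -0.67 with Lps, -0.63 with Cpg and -0.64 with Grd, below the dashed line in each of these panels.

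Each ligand lowered a majority of the genes, and the size differed by ligand. Lps lowered 66 of 74 genes in the middle window (47.8% of all items), Pic 65 (46.3%), Pam 48 (37.7%), Cpg 61 (44.8%) and Grd 64 (40.7%). The late counts were 61 with Lps (35.3%), 67 with Pic (38.5%), 41 with Pam (31.7%), 55 with Cpg (31.4%) and 59 with Grd (32.4%). The late medians were -0.38 with Lps, -0.47 with Pic, -0.17 with Pam, -0.37 with Cpg and -0.37 with Grd, where the medians over all items lay between -0.03 and -0.01. Falls were thus mostly small. Only Ndufaf4, Ndufs7, Ndufs8 and Atp5g1 were called with a log2 difference of at least 1 in size in any ligand window, where the middle Lps arrays lowered 8.22% of all items by that much, Pic 2.79%, Cpg 5.53% and Grd 3.92%, and the late Lps arrays 4.42% and Pic 4%. The part of plate position in these counts was not tested.

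Arrays as well as means were separated for many genes. Every Lps array of the middle window lay below every Control array for 44 of the 74 genes (28.2% of all items), and the corresponding counts were 21 with Pic (18.8%), 24 with Pam (17.7%), 29 with Cpg (22.9%) and 31 with Grd (20%). The late counts were 40 with Lps (16.2%), 48 with Pic (17.3%), 26 with Pam (12%), 38 with Cpg (15.2%) and 39 with Grd (12.9%). The same genes were often lowered by all ligands. Lower with all 5 were 47 genes in the middle window (26.1% of all items were), in the late window 41 (17.6%) and in the early window 12 (13.4%). The 12 early ones were Atp5j, Atp5j2, Cox6c, Cox7a2l, Cox8a, Ndufa1, Ndufa3, Ndufa7, Ndufb5, Ndufs3, Ndufs8 and Uqcrq. The comparisons share the Control arrays, so a high or low Control level moves all 5 together. Only Ndufaf3 was higher with all 5 ligands, in the late window (9.51% of all items were).

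**Figure D2:**
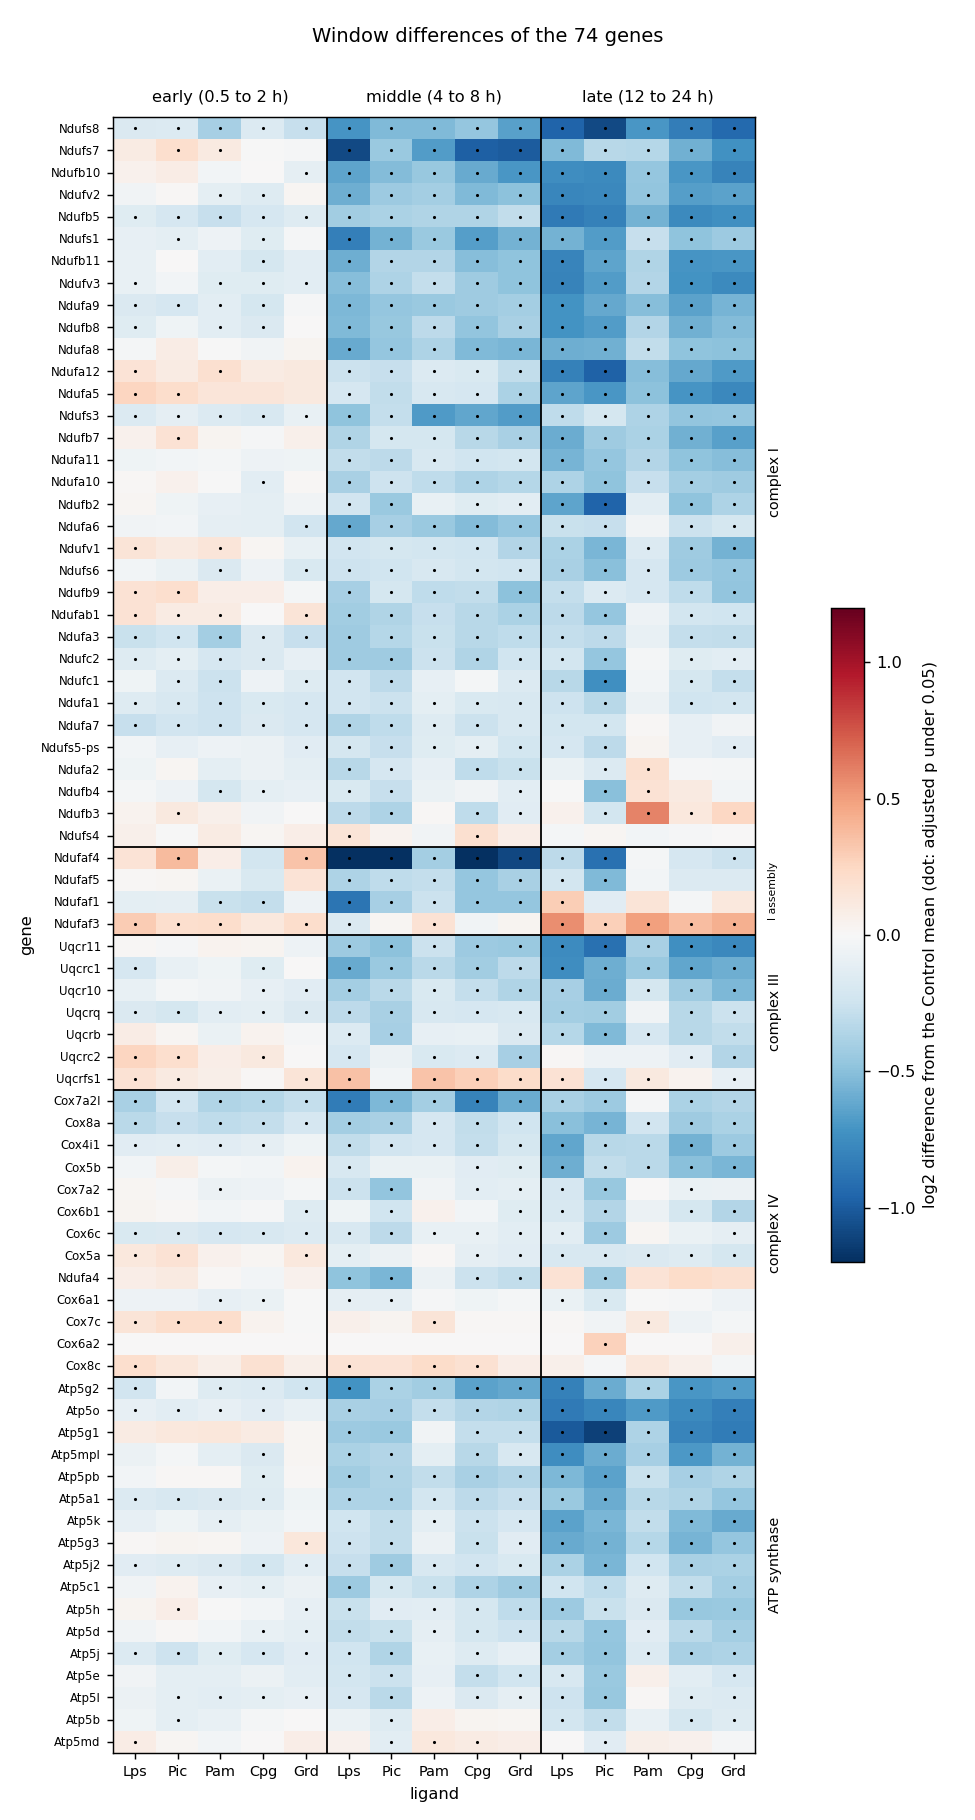
Log2 difference from Control for each of the 74 genes (rows, grouped by complex) in 15 columns, 5 ligands in each of 3 windows, with blue lower, red higher and a dot where the adjusted p was under 0.05. Colours stop at 1.2 in size, which Ndufaf4 passed in the middle window at -1.74 with Lps.

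The core subunits of complex I were lower in the middle and late windows with all ligands. Averaged over the ligands, Ndufs7 fell most of them in the middle window and Ndufs8 in the late window, both next to the ubiquinone site. Over the 33 subunit genes 153 of 165 gene and ligand pairs were lower in the middle window and 136 in the late window. Ndufs7, which holds the last iron-sulphur cluster before ubiquinone, had a lowest, median and highest intensity of 419.5, 465 and 618 on the 6 middle Lps arrays, 653, 762 and 893 with Pic, 616, 651 and 732 with Pam, 416, 529 and 649 with Cpg and 449.8, 515 and 624.9 with Grd, against 934, 1062 and 1129.9 on the 8 Control arrays. Every stimulated array of that window was below every Control array. The differences were -1.09 ± 0.04 with Lps (limma adjusted p = 1.05e-28), -0.45 ± 0.04 with Pic, -0.67 ± 0.04 with Pam, -0.98 ± 0.04 with Cpg and -0.996 ± 0.04 with Grd. The other probe set of the gene fell as well, by values between -1.25 and -0.69. The level had partly returned by the late window, where the differences ranged from -0.72 to -0.34, all called. In the early window it was higher with Pic (0.21 ± 0.04, adjusted p = 1.49e-04) and Pam (0.11 ± 0.04, adjusted p = 0.0352).

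Ndufs8, which carries a pair of iron-sulphur clusters in the same arm, was lower in the late than in the middle window with every ligand. Its intensity was 461, 524 and 595 (lowest, median and highest) on the late Lps arrays, 370.5, 484 and 607 with Pic, 599.5, 639.8 and 686 with Pam and 452, 536 and 635 with Grd, against 836, 1028 and 1202 in Control. With Cpg it was 598 and 562 at 12 h, 663 at 16 h and 519.7 at 24 h. All late stimulated arrays were below all Control arrays. The differences were -0.96 ± 0.06 with Lps, -1.08 ± 0.06 with Pic (limma adjusted p = 1.56e-22), -0.70 ± 0.06 with Pam, -0.83 ± 0.07 with Cpg and -0.93 ± 0.06 with Grd. The Control level itself was low at the end, at 955 at 12 h and 836 at 24 h, and with 12 and 24 h arrays alone on both sides the differences were -0.82 with Lps, -0.73 with Pic, -0.45 with Pam, -0.70 with Cpg and -0.82 with Grd. The middle differences against Control of the same times were -0.88 with Lps, -0.70 with Pic, -0.71 with Pam, -0.64 with Cpg and -0.83 with Grd. Against such Control the late difference of this probe set was thus the lower with Pic and Cpg only. The other probe sets of the gene were set against all Control arrays only. They differed by values between -0.47 and 0.07 in the middle window and between -0.98 and -0.12 late. Each was lower late than in the middle window with every ligand. The dimmest of them, at 42.1 in Control, was near the limit.

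The other core subunits moved by less. Ndufs1, which carries iron-sulphur clusters of the NADH arm, was at 208, 230.0 and 264 on the middle Lps arrays, against 359.6, 408 and 447 in Control, a difference of -0.82 ± 0.05 (limma adjusted p = 8.64e-23). No middle array of any ligand reached the lowest Control array, and the other differences were -0.56 with Pic, -0.44 with Pam, -0.66 with Cpg and -0.57 with Grd. Ndufv1, which binds NADH, fell by values between -0.35 and -0.21 in the middle window and between -0.57 and -0.16 in the late window, all called. Ndufs3, a core subunit without a cluster, was at 525 to 595 on the middle Pam arrays, against 856 to 915 in Control. These did not overlap, and the difference was -0.68 ± 0.03 (limma adjusted p = 5.81e-26). It was 1 of 2 members lower with Pam than with the other ligands in that window.

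Among accessory subunits of complex I several of the largest falls were in the late window. Ndufa12 was at 827, 914 and 1051 (lowest, median and highest) on the late Lps arrays and 632, 839.5 and 988 with Pic, against 1161, 1732 and 1801 in Control. Neither overlapped with Control, and the differences were -0.82 ± 0.06 with Lps and -0.97 ± 0.06 with Pic (limma adjusted p = 1.93e-20). With the mean of its probe sets the middle falls of this gene turned into small rises with Lps, Pam, Cpg and Grd. Of its other probe sets, the one near the limit (25.3 in Control) differed by 0.34 to 0.72 in that window. The brighter one (573.5 in Control) differed by -0.31 to -0.08. Ndufb5 fell by values between -0.85 and -0.57 and Ndufb10 by values between -0.80 and -0.46, both subunits of the membrane arm and both called with all ligands. Ndufv3 was at 1029 to 1174 on the late Lps arrays, against 1778 to 2200.3 in Control, -0.80 ± 0.04 (limma adjusted p = 3.55e-25). Its arrays did not overlap either. Of the brightest probe sets, Ndufa1 moved by -0.33 to -0.07 and Ndufa3 by -0.31 to -0.09 late, each called with 4 ligands and not with Pam. Other accessory subunit genes, among them Ndufa6, Ndufc2 and Ndufab1, fell more in the middle window. Averaged over the ligands, Ndufa6 was at -0.39, -0.53 and -0.54 at 4, 6 and 8 h, and at -0.47, -0.13 and -0.04 at 12, 16 and 24 h. Ndufs5-ps is annotated as a pseudogene of Ndufs5, and its probe set may read the parent gene, so its value is uncertain.

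A few complex I genes went the other way. Ndufb3, a membrane arm subunit, was at 795, 942 and 1209.8 on the late Pam arrays, against 622, 643 and 676 in Control. All 6 were above all 8 Control arrays, with a difference of 0.60 ± 0.04 (limma adjusted p = 9.32e-21). The gene was also higher late with Cpg (0.13 ± 0.04) and Grd (0.25 ± 0.04), lower with Pic (-0.22 ± 0.04) and at 0.06 ± 0.04 with Lps, which was not called. Its late arrays with Cpg and Grd overlapped with Control. Ndufs4, an accessory subunit known for its loss in human Leigh syndrome, was not lower in any window, and was called higher in the middle window with Lps (0.16 ± 0.05) and Cpg (0.19 ± 0.05), calls that reversed with the mean of its probe sets.

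The complex I assembly factors followed a course of their own, with the lowest level at 4 h (1 gene) or 6 h (3 genes). Ndufaf4 assists assembly of the ubiquinone-binding part of complex I, and its intensity was 67.2, 75.6 and 84.6 (lowest, median and highest) on the middle Lps arrays, 65.6, 87.2 and 168 with Pic, 163, 189.9 and 238 with Pam, 84.1, 102 and 122 with Cpg and 102, 119 and 141 with Grd, against 157, 277 and 350.0 in Control. The Lps, Cpg and Grd arrays lay below all Control arrays, and the Pic and Pam arrays overlapped with the lowest of them, 157 at 6 h and 175 at 24 h. The differences were -1.74 ± 0.11 with Lps (limma adjusted p = 1.39e-20), -1.33 ± 0.11 with Pic, -0.41 ± 0.11 with Pam (adjusted p = 0.00105), -1.30 ± 0.11 with Cpg and -1.09 ± 0.11 with Grd. Against Control of 4, 6 and 8 h alone they were -1.59 with Lps, -1.18 with Pic, -0.26 with Pam, -1.15 with Cpg and -0.94 with Grd. The second probe set of the gene differed by values between -0.94 and -0.60. By the late window the Pic difference was -0.89 ± 0.11 and the Pam difference, which was not called, -0.02 ± 0.11.

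The other assembly factors differed from each other. Ndufaf1, a factor of the membrane arm, was at 38.8, 49 and 60.8 on the middle Lps arrays and 76.6, 114 and 137 on the late ones, against 78.5, 83.1 and 109.7 in Control. The middle arrays lay below all Control arrays and the late arrays overlapped with them, with differences of -0.87 ± 0.08 and 0.30 ± 0.08 (limma adjusted p = 2.84e-14 and 0.00123). Ndufaf3, which acts together with Ndufaf4, was at 239.8, 326 and 347 on the late Lps arrays and 259.6, 294 and 315 with Pam, against 175, 214 and 233 in Control. Late arrays of Lps (12.2% of all items), Pam (9.77%), Cpg (11%) and Grd (10.2%) were above all Control arrays and those of Pic overlapped. The differences were 0.56 ± 0.05 with Lps (limma adjusted p = 3.80e-13), 0.28 ± 0.05 with Pic, 0.49 ± 0.05 with Pam, 0.37 ± 0.06 with Cpg and 0.43 ± 0.05 with Grd. Ndufaf5, known in human cells to hydroxylate the NDUFS7 protein, fell in the middle window by values between -0.46 and -0.28, all called, from a Control intensity of 51.4 ± 7.99.

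In complex III 27 of 35 gene and ligand pairs were lower in the middle window and 28 in the late window. The small subunit gene Uqcr11 was at 327, 374 and 403 (lowest, median and highest) on the late Lps arrays, 302, 329.9 and 370.5 with Pic, 415, 474 and 525 with Pam and 318, 354 and 413 with Grd, against 558, 619.5 and 690.1 in Control. No late array of any ligand reached the Control range. The differences were -0.75 ± 0.05 with Lps, -0.89 ± 0.05 with Pic (limma adjusted p = 2.35e-23), -0.39 ± 0.05 with Pam, -0.73 ± 0.06 with Cpg and -0.78 ± 0.05 with Grd. The core protein gene Uqcrc1 fell by values between -0.75 and -0.45 and Uqcr10 by values between -0.59 and -0.21, all called. Uqcrc2, the other core protein, was lower late with Cpg (-0.14 ± 0.05) and Grd (-0.35 ± 0.04) and was not called with Lps, Pic or Pam.

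Uqcrfs1, the Rieske subunit that takes electrons from ubiquinol, rose in the middle window with Lps, Pam, Cpg and Grd. Its intensity was 1561, 1719 and 1865 on the middle Lps arrays, 1299.7, 1318 and 1352 with Pic, 1649, 1705 and 1789.9 with Pam, 1560.2, 1631 and 1749.6 with Cpg and 1498, 1545 and 1807 with Grd, against 1210.5, 1385 and 1409.8 in Control. All arrays of Lps, Pam, Cpg and Grd stood above all Control arrays, and those of Pic lay within the Control range. The differences were 0.35 ± 0.04 with Lps (limma adjusted p = 2.17e-12), 0.34 ± 0.04 with Pam, 0.29 ± 0.04 with Cpg and 0.22 ± 0.04 with Grd, and -0.03 ± 0.04 with Pic, which was not called. It was the only member of which every middle array lay above every Control array with Lps (15% of all items), Cpg (13%) and Grd (11.9%), and with Pam it shared this with Cox7c (11.4%). In the late window it was lower with Pic (-0.20 ± 0.04) and still higher with Lps (0.17 ± 0.04).

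Complex IV had the lowest share of lower calls in the middle window, where 38 of 65 gene and ligand pairs were lower, 37 in the late window. With arrays centred on their median the middle count was 21, or 32.3% of the pairs, against 32.8% of all items. Both complex IV shares include Cox6a2, at the limit in Control and unable to fall, and Cox8c, close to the limit. Neither was called lower in the middle window with any ligand, which holds the shares down. Items at the limit in Control are in the background too, and shares without them were not computed. Cox6a1, the brightest member, differed by values between -0.11 and -0.01, and with centred arrays its fall with Lps turned into a rise. Cox7a2l, which binds complex III to complex IV in supercomplexes, was at 730.1, 764 and 816 (lowest, median and highest) on the middle Lps arrays and 733, 759 and 888 with Cpg, against 1126, 1322 and 2105 in Control. Every middle array of each ligand was below every Control array. The differences were -0.84 ± 0.07 with Lps (limma adjusted p = 2.85e-16) and -0.80 ± 0.07 with Cpg, and without the Control array of 24 h (2105) they were -0.75 and -0.71.

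Cox4i1, a regulatory subunit, fell mostly late. It was at 2904, 3007 and 3197 on the late Lps arrays, 3539, 3718 and 3827 with Pic, 3506, 3732 and 3896 with Pam and 3117, 3413 and 3918 with Grd, against 4345, 4587 and 5177 in Control. No late array of any ligand reached the Control range, and the differences were -0.63 ± 0.03 with Lps (limma adjusted p = 5.48e-25), -0.34 ± 0.03 with Pic, -0.33 ± 0.03 with Pam, -0.56 ± 0.04 with Cpg and -0.43 ± 0.03 with Grd. Its hypoxia-linked isoform gene Cox4i2 was at the lower limit on every array. Cox5b fell by values between -0.58 and -0.30, Cox8a by values between -0.55 and -0.23 and Cox5a by values between -0.21 and -0.15, all called. Cox6b1 was lower late with Lps, Pic, Cpg and Grd (-0.35 with Pic and -0.35 with Grd) and not called with Pam.

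Ndufa4, named for complex I and now placed in complex IV, was lower in the middle window with Lps (-0.48 ± 0.09), Pic (-0.55 ± 0.09), Cpg (-0.26 ± 0.09) and Grd (-0.29 ± 0.09). Late, it was called with Pic alone (-0.42 ± 0.09, limma adjusted p = 4.59e-05), and the other late values were 0.18 with Lps, 0.16 with Pam, 0.22 with Cpg and 0.20 with Grd, none called. Its Control level was uneven, from 212 to 426, with the lowest at 24 h. Cox7c was higher with Pam in the middle and late windows (0.16 ± 0.04 and 0.12 ± 0.04) and not called with the other ligands there. Its middle Pam arrays, 897 to 927, were above its Control arrays, 777 to 859.8. Of the isoform genes, Cox6a2 was at the limit of 20 in Control and passed it only on late arrays. Its late Pic arrays ran from 20 to 34.7 (0.28 ± 0.03) and its late Grd arrays from 20 to 25.8, the latter not called. The gene is a member only through such arrays and could only rise from the limit. The direction of its call with Pic was thus fixed in advance, and no p-value is given. Cox8c was called higher in the middle window with Lps (0.17 ± 0.08), Pam (0.22 ± 0.08) and Cpg (0.18 ± 0.08), close to the limit. Its intensity lay between 27.4 and 34.5 on the middle Lps arrays, against 25.4 to 31.8 in Control.

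Against all 8 Control arrays, 77 of 85 gene and ligand pairs of the ATP synthase were lower late and 70 in the middle window. None was called higher late there, and none at an unadjusted limma p under 0.05. Against Control of the same times, with fewer arrays, the order was reversed. There 82.4% of the pairs were lower late and 90.6% in the middle window. The genes Atp5g1, Atp5g2 and Atp5g3 encode the same mature c subunit of the proton-driven ring with different import sequences, and their probe sets could share signal where the transcripts are alike. Atp5g1 was at 442, 516 and 547 (lowest, median and highest) on the late Lps arrays, 372, 473 and 534 with Pic, 732, 754 and 858 with Pam and 458, 571 and 626 with Grd, against 587, 1106 and 1227 in Control. With Cpg it was 579.6 and 509 at 12 h, 640.4 at 16 h and 548 at 24 h. The Lps and Pic arrays lay below all Control arrays, and the Pam, Cpg and Grd arrays overlapped with the Control array of 24 h, 587. The differences were -1.01 ± 0.09 with Lps, -1.12 ± 0.09 with Pic (limma adjusted p = 6.57e-17), -0.37 ± 0.09 with Pam (adjusted p = 2.20e-04), -0.79 ± 0.10 with Cpg and -0.84 ± 0.09 with Grd. They depend on which Control arrays are used. With arrays of 12 and 24 h alone they were -0.55 with Lps (adjusted p = 3.15e-07), -0.53 with Pic, 0.13 with Pam (adjusted p = 0.212), -0.38 with Cpg and -0.41 with Grd.

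The other c subunit genes fell late with every ligand. Atp5g2 was at 1629, 1794 and 1962 on the middle Lps arrays and 1417, 1762 and 1818 on the late ones, against 2645, 2791 and 3709 in Control, differences of -0.72 ± 0.05 and -0.81 ± 0.05 (limma adjusted p = 2.47e-18 and 4.06e-20). Neither window overlapped with Control. Atp5g3 fell by values between -0.61 and -0.34 in the late window, all called.

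Atp5o, the subunit that fixes the F1 head to the outer stalk, fell late by a similar amount with each ligand. Its intensity was 1225, 1346 and 1387 on the late Lps arrays, 1245, 1395 and 1543 with Pic, 1415, 1440.4 and 1636 with Pam and 1167, 1378 and 1407 with Grd, against 2113, 2330.3 and 2734 in Control. No late array of any ligand reached the lowest Control array. The differences were -0.85 ± 0.04 with Lps (limma adjusted p = 9.89e-26), -0.78 ± 0.04 with Pic, -0.68 ± 0.04 with Pam, -0.77 ± 0.05 with Cpg and -0.82 ± 0.04 with Grd. Mean late intensities were 55.5% of the Control mean with Lps and 62.4% with Pam. The stalk gene Atp5pb fell by values between -0.41 and -0.30 in the middle window and between -0.64 and -0.27 in the late window, all called.

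The catalytic F1 genes differed from each other. Atp5a1, the alpha subunit, fell late by values between -0.60 and -0.33 with all ligands. Atp5b, the beta subunit that carries the catalytic sites, was at 2285 to 2831 on the late Pic arrays, against 2551 to 3361 in Control. These overlapped, and its late differences were -0.30 ± 0.04 with Pic (limma adjusted p = 5.71e-08), -0.22 ± 0.04 with Lps, -0.21 ± 0.05 with Cpg, -0.15 ± 0.04 with Grd, while the Pam value of -0.09 ± 0.04 was not called. Only Pic gave a call in the middle window (-0.15 ± 0.04). Atp5c1, the central stalk, fell in the middle window by values between -0.44 and -0.21. Atp5md, a small membrane protein bound to the ATP synthase, was called higher in the middle window with Pam (0.13 ± 0.04) and Cpg (0.10 ± 0.04) and lower with Pic (-0.13 ± 0.04).

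**Figure D3:**
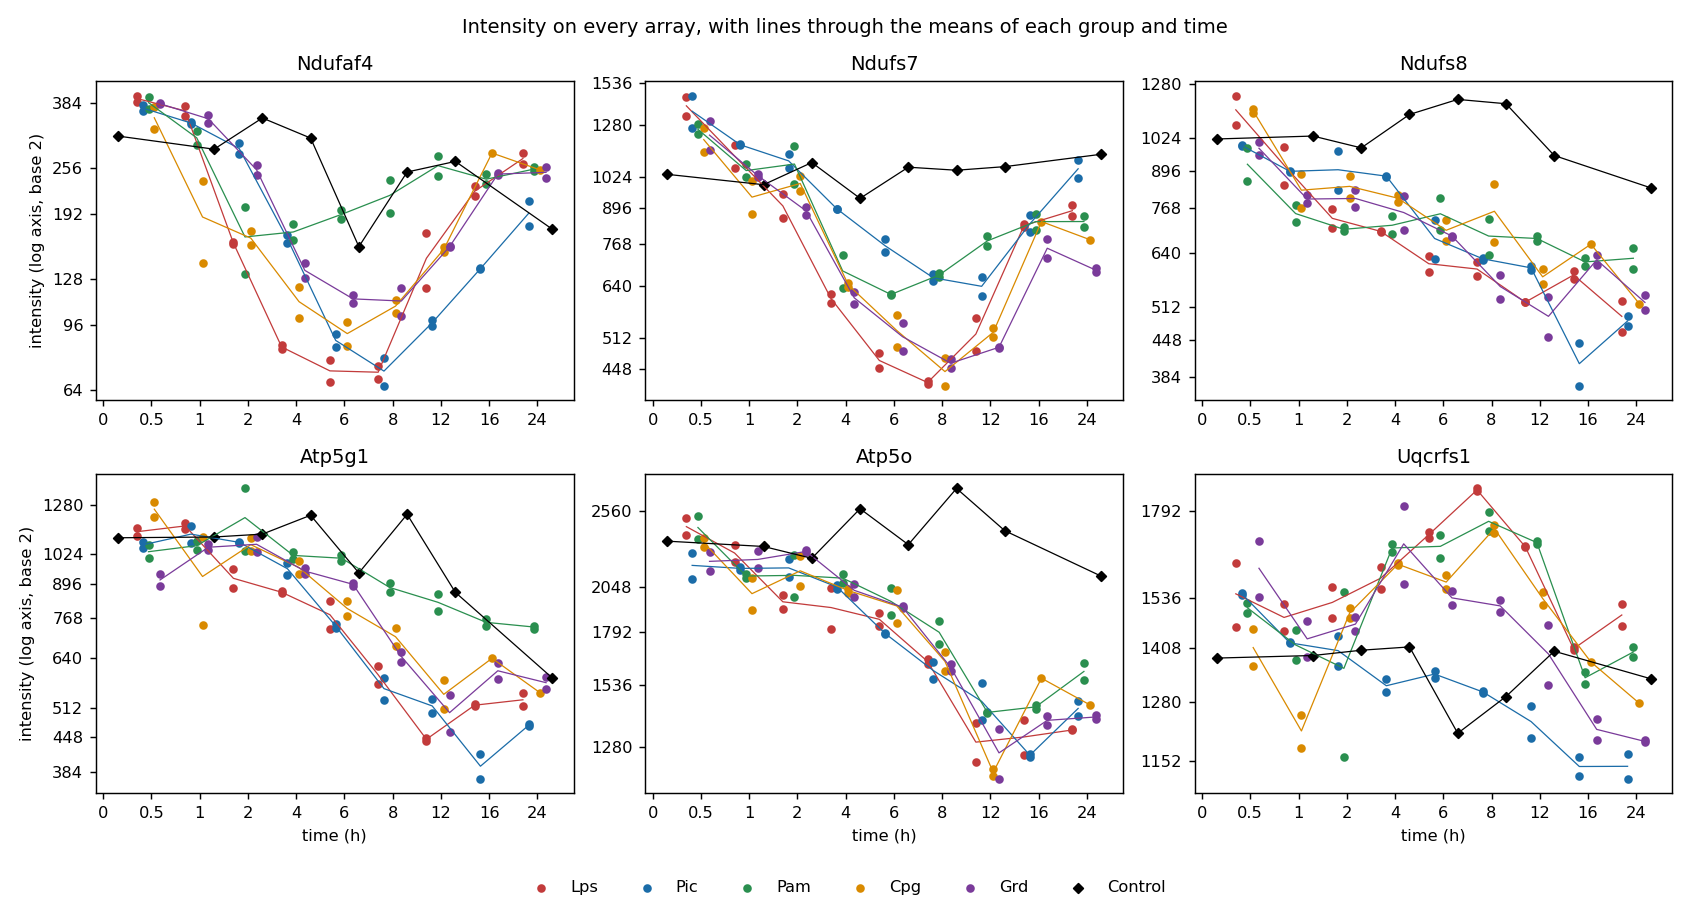
Intensity on every array (points, log-scaled y axis) against time in hours (x axis, sampled times evenly spaced) for Ndufaf4, Ndufs7, Ndufs8, Atp5g1, Atp5o and Uqcrfs1, with the ligands in colour, Control as black diamonds and lines through the means. Ndufs7 is lowest in the middle window (419.5 to 618 on the Lps arrays, against 934 to 1129.9 in Control) and Atp5o in the late one (1225 to 1387, against 2113 to 2734), while Uqcrfs1 rose to 1561 to 1865 with Lps, against 1210.5 to 1409.8 in Control.

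The time of the lowest level varied among the genes. Averaged over the ligands, 40 of the 74 genes were lowest at 12 h, among them 12 of 17 ATP synthase genes, 18 of 33 complex I genes and 6 of 7 complex III genes. Of the 13 complex IV genes 4 were lowest at 12 h, and others at times from 2 to 24 h. Cox6a2 had no single lowest time, since its mean difference was 0 at every time from 0.5 to 12 h. A difference between complexes was not tested. A further 8 were lowest at 8 h, 8 at 24 h, 7 at 16 h and 6 at 6 h. Late minus middle, as the mean of the 5 ligands, was negative and called for 44 genes (29.8% of all items) and positive for 22 (42.9%), and with centred arrays for 51 and 12. Centred shares over all items are not given for this contrast. The centred medians were -0.19 for the members and -0.07 over all items. The largest negative values, in a contrast without Control, were those of Atp5g1 (-0.53 ± 0.04), Ndufa12 (-0.48 ± 0.03) and Atp5o (-0.42 ± 0.02). Against Control of the same times Atp5g1 did not fall further. Its middle values were -0.61 with Lps, -0.61 with Pic, -0.21 with Pam, -0.46 with Cpg and -0.45 with Grd. The late values were -0.55, -0.53, 0.13, -0.38 and -0.41 in that order. Atp5o was still lower late with each ligand, at -0.49 (middle) and -0.77 (late) with Lps. Higher late than in the middle window were the assembly factor genes Ndufaf4 (0.84 ± 0.05), Ndufaf1 (0.58 ± 0.04) and Ndufaf3 (0.42 ± 0.03), followed by Ndufa4 (0.40 ± 0.04) and Ndufb3 (0.39 ± 0.02). The Control arrays were fitted against log2(h + 1). After adjustment only Atp5e, an F1 subunit, was higher over time (0.10 ± 0.02 per unit, limma adjusted p = 0.0401; 5.25% of all items), and Ndufaf3 and Ndufb7, a complex I subunit, were lower (both -0.08, adjusted p = 0.0382 and 0.0412; 7.06%). At an unadjusted p under 0.05 limma gave 12 higher and 11 lower. With centred arrays 8 were higher and 3 lower after adjustment, and in most fits that left out 1 Control array these calls were lost.

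Pam left these transcripts highest. Set against the mean of the other 4 ligands, a contrast without Control, Pam was higher for 65 genes and lower for 1 in the late window, against 27.5% and 19.5% of all items. Its middle counts were 50 higher and 2 lower (background 38.5% and 18.9%), and with centred arrays 22 were higher and 2 lower. Centred shares over all items are not given for this contrast, so the centred counts have no background. The centred middle medians were 0.04 for the members and -0.01 over all items. In the late window Pam had the highest mean of the 5 ligands for 62 of the 74 genes, and in the middle window for 48. The largest late differences belonged to Atp5g1 (0.57 ± 0.07, limma adjusted p = 4.65e-09), Ndufb3 (0.54 ± 0.03, adjusted p = 1.52e-21) and Ndufb2, a membrane arm subunit (0.48 ± 0.05). For Atp5g1 the late Pam arrays ran from 732 to 858, against 442 to 547 with Lps, 372 to 534 with Pic, 509 to 640.4 with Cpg and 458 to 626 with Grd. Pam therefore did not overlap with any of them. In the middle window the largest was Ndufaf4 (0.96 ± 0.09, limma adjusted p = 4.29e-13), while Ndufs3 was lower with Pam (-0.17 ± 0.03).

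Pic left them lowest late. It was lower than the mean of the other 4 for 47 genes and higher for 8 in the late window (background 34.2% and 28.6%), and had the lowest mean of the 5 ligands for 42 genes. The largest of these differences were those of Ndufaf4 (-0.69 ± 0.09), Ndufa4 (-0.61 ± 0.08) and Ndufb4 (-0.56 ± 0.04, limma adjusted p = 4.45e-19). Ndufb4, a membrane arm subunit, ran from 478 to 614 on the late Pic arrays, against 658 to 853 with Lps, 769 to 978 with Pam, 668 to 948 with Cpg and 656 to 870.4 with Grd, without overlap. In the middle window Pic was lower for 25 genes and higher for 13 (background 28.5% and 28.3%), or 28 and 8 with centred arrays, for which no background is given. The centred middle medians were -0.05 for the members and -0.02 over all items. Ndufs7 (0.49 ± 0.04) and Ndufs3 (0.33 ± 0.03) were higher with Pic, and Cox7a2, a complex IV subunit (-0.34 ± 0.03), and Uqcrfs1 (-0.33 ± 0.03) lower.

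The other ligands stood nearer to the mean in the late window. In the middle window Lps had the lowest mean of the 5 ligands for 34 genes and Pic for 25. Lps was lower for 33 genes and higher for 2 in the middle window (background 33% and 18.2%), a split of 8 and 11 with centred arrays, and lower for 25 and higher for 5 in the late window (background 15.5% and 13.9%). Its largest middle differences were those of Ndufaf4 (-0.71 ± 0.09), Ndufaf1 (-0.48 ± 0.07) and Ndufs7 (-0.31 ± 0.04). Grd was lower for 10 and higher for 8 in the middle window (background 13.3% and 18%), or 14 and 2 with centred arrays, and lower for 16 and higher for 5 in the late window (background 14.7% and 18.2%), or 19 and 2. Uqcrc2 was lower with Grd in both windows (-0.25 ± 0.04 and -0.29 ± 0.04). Cpg differed for the fewest, lower for 4 and higher for 7 in the middle window (background 15.2% and 11.1%), or 2 and 11 with centred arrays. Late it was lower for 3 and higher for 2 (background 5.54% and 5.16%), or 3 and 1. The centred counts of these 3 ligands have no background, since centred shares over all items are not given. The centred middle medians of members and of all items were 0.01 and 0.05 with Lps, -0.03 and -0.03 with Grd and 0.03 and 0.02 with Cpg.

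**Figure D4:**
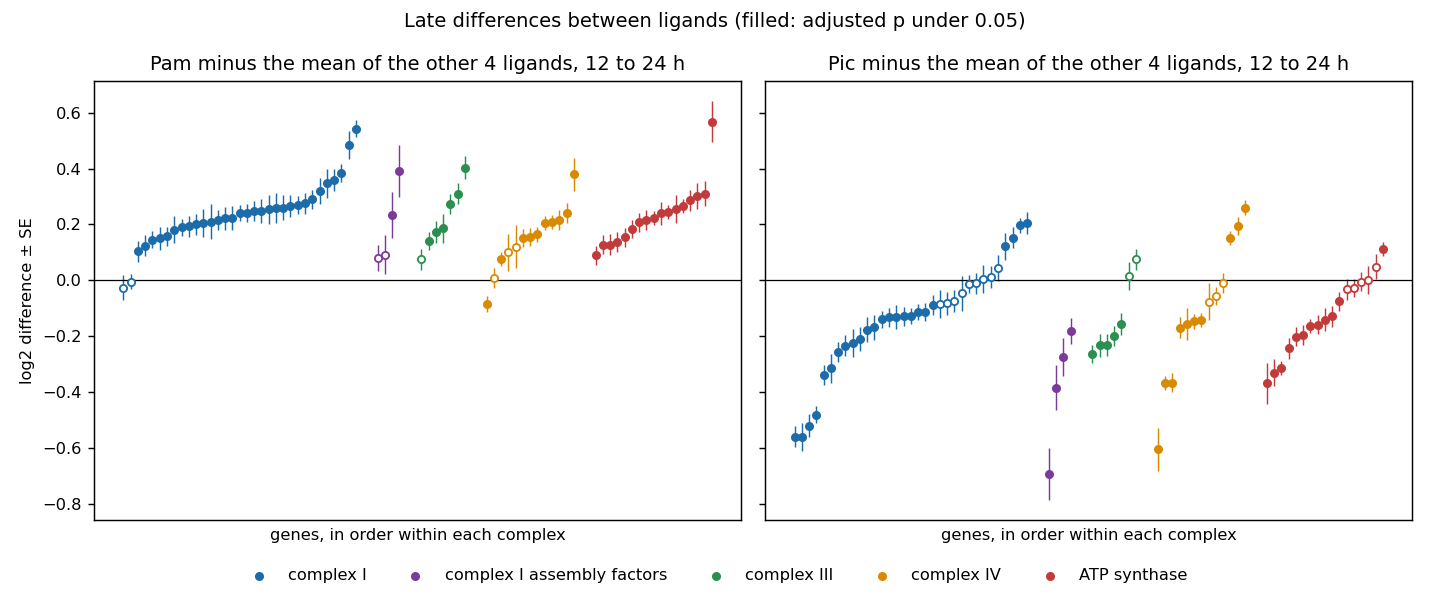
Late log2 difference of Pam (left) and of Pic (right) from the mean of the other 4 ligands (y axis) for each of the 74 genes (x axis, ordered by value within each complex and coloured by complex), with the standard error as bars and filled points where the adjusted p was under 0.05. With Pam 65 genes were called higher and with Pic 47 were called lower.

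Other genes of the pathway moved with these or against them. Over all items the middle window had 47.8% lower and 26.2% higher for Lps, 46.3% and 23.1% for Pic, 37.7% and 25.1% for Pam, 44.8% and 24.9% for Cpg and 40.7% and 23.6% for Grd, and some of the counts below are near these shares. All 4 complex II genes were lower in the middle window with every ligand, and Sdha, its flavoprotein, differed by -0.60 with Lps, -0.47 with Pic, -0.46 with Pam, -0.53 with Cpg and -0.43 with Grd. Of 8 measured genes of 15 listed electron carrier and other complex III genes, 4 were lower and 2 higher in the middle window with Lps, 5 and 1 with Pic, 2 and 0 with Pam, 3 and 1 with Cpg and 3 and 1 with Grd (by limma, with Pam also 0 higher at an unadjusted p under 0.05). Cyc1, cytochrome c1 of complex III, was lower with all 5 (-0.41 to -0.23), and so was Coq9, needed to make ubiquinone (-1.33 with Lps, -0.73 with Pic, -0.56 with Pam, -0.94 with Cpg and -0.91 with Grd). Cycs, cytochrome c itself, was higher with Lps (0.60), Pic (0.28), Cpg (0.51) and Grd (0.35), and was at 0.14 with Pam, not called. Of 10 measured carriers and channels of 15 listed, 7 were lower with Lps, 7 with Pic, 6 with Pam, 7 with Cpg and 6 with Grd, including the ADP/ATP carrier Slc25a5 (-0.35 to -0.17) and the outer membrane channel Vdac1 (-0.67 to -0.37). The dicarboxylate carrier gene Slc25a10 was higher late with Lps, Pam, Cpg and Grd and lower with Pic (1.44 with Lps, -0.18 with Pic, 1.34 with Pam, 1.49 with Cpg and 1.39 with Grd).

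Assembly factors outside the rule were split in direction. In percent of the 22 measured, the lower calls were 63.6% with Lps and 45.5% with Grd, and the higher ones 27.3% with Lps, against 47.8%, 40.7% and 26.2% of all items. Of these 22 measured of 33 listed, 14 were lower and 6 higher in the middle window with Lps, 15 and 6 with Pic, 12 and 5 with Pam, 13 and 7 with Cpg and 10 and 4 with Grd. The copper chaperone gene Cox17 was higher with all 5 (0.31 to 0.64). Surf1, a complex IV factor (-1.03 to -0.43), Ecsit, a complex I factor that also acts in TLR signalling (-1.12 to -0.59), and Sdhaf1, a complex II factor (-1.51 to -0.43), were lower with all 5. Of 16 measured regulators of mitochondrial biogenesis of 22 listed, 9 were lower and 1 higher with Lps, 9 and 2 with Pic, 7 and 6 with Pam, 7 and 2 with Cpg and 7 and 3 with Grd. The lower shares with Pam, Cpg and Grd were each 43.8%, near those of all items (37.7%, 44.8% and 40.7%). Ppargc1b, a coactivator of respiratory genes, had the largest fall among them, -3.17 with Lps, -0.90 with Pic, -2.70 with Pam, -3.37 with Cpg and -3.26 with Grd. Its intensity averaged 51.9 ± 9.47 (SD, n = 6) on the middle Lps arrays, against 481 ± 114 (n = 8) in Control. Tfam, which packages and transcribes mitochondrial DNA, was higher with Pic (0.27), lower with Pam (-0.38) and Grd (-0.24), and at -0.04 with Lps and -0.04 with Cpg. Of 7 measured of 12 listed inhibitors and replacements, Acod1, which makes itaconate, was higher with all 5 (1.82 to 2.00), and Nos2, which makes nitric oxide, with Lps (2.79), Cpg (1.00) and Pic (0.19), from the lower limit in Control.

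Markers of other cells moved in the same windows. The summed intensity of 9 measured neutrophil markers of 11 listed was 1247 to 3068 on the late Lps arrays, 3957 to 6230.0 with Pic, 2324 to 3267 with Pam, 1638 to 3821 with Cpg and 2217 to 4432 with Grd, against 5215 to 8232 in Control, with Ly6g and Retnlg not measured here. The middle sums were 4344 to 5606 with Lps and 7017 to 9155 with Pic. Macrophage and monocyte markers (8 of 10 measured) summed to 22857 to 29019.7 with Lps, 20524 to 24015 with Pic, 24859 to 31785 with Pam, 24370.4 to 29400.0 with Cpg and 25889 to 32504 with Grd in the late window, against 20803 to 27116 in Control. Dendritic cell markers summed to 22433 to 28111 with Lps, 26029.7 to 27607 with Pic, 21027 to 27905 with Pam, 21595 to 26553 with Cpg and 18768 to 26092 with Grd. Late, the neutrophil sum was nearest to Control with Pic, the ligand with the lowest respiratory chain transcripts. The part of these cells in the falls was not tested. The measured markers of B cells (1 of 5), T and NK cells (1 of 8) and mast cells and basophils (2 of 5) were at the limit in Control, and none of 4 red cell markers was measured.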

How the data were processed

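The labels name RNA extraction with miRNeasy and biotin labelling for mouse HT arrays, and the submitters' processing notes name RMA, a background correction, quantile normalization and summary per probe set. The deposited intensities, 1 value per probe set and array, were made by the authors on a linear scale with a lower limit of 20, as the values show. No source used here says how log2 values were turned back or why 20 is the limit. The authors' intensities were turned here into log2(value + 1).

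Of 18858 probe sets, 14449 passed 20 on any array. GEO's platform annotation gave 15044 probe sets 1 gene symbol, 257 several and 3557 none. Symbols were updated through Entrez IDs where these matched (15024), which changed 0. Each gene was represented by its probe set with the highest mean. For the 36 members with several probe sets above the limit, the others had the same sign in 190 of 216 differences in the middle window and in 187 of 197 in the late window. Groups were taken from the titles and characteristics. limma (version 3.58.1, R 4.3.3) was fitted to 46 group means with 50 residual degrees of freedom, and the windows, ligand contrasts, late against middle and a line on log2(h + 1) through Control were tested with Benjamini-Hochberg adjustment over 10543 items. The limma fit was tested on simulated data. The number of arrays limits the precision. The members and gene lists were chosen with earlier results of these data known. Genes named with values were those at a log2 difference of at least 1, the 3 brightest and the 3 largest called rises and falls of each complex, the 3 largest of each ligand contrast and Control trend, and a panel that includes Ndufs1, Ndufs4, Ndufv1, Cox4i1, Cox5a, Atp5a1, Atp5b, Ppargc1b and Tfam. List genes other than the panel were picked after their values were seen, and so were the examples within a rule's choices and the figures' genes. AA467197 and Ndufa4l2 of the panel were not analysed here. Alternatives were a pseudocount of 16, arrays centred on their medians, no filter, the mean of probe sets, array weights, a replicate block, a line fitted to Control, Control of the same times, and each array left out. A late window of 16 and 24 h was added after seeing the data. Promoter sequences are RefSeq's, build GRCm38.p6.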

Additional observations from a re-analysis of the deposited data

Results flagged for a closer look

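Of the 74 genes tested over the 8 Control arrays, 4 had 1 Control array far from the rest, and chance marks about 1 in 20 groups. Ndufa6, a complex I subunit, was at 565.8 at 24 h, against 353 to 449.1 on the others. Cox6a1 was at 5409.1 at 24 h, against 5999.9 to 6394.6. Cox7a2l was at 2105.3 at 24 h, against 1125.6 to 1483.4. Ndufa11, another complex I subunit, was at 1174 at 8 h, against 826.9 to 981.1. Without the marked array the middle Lps difference was -0.55 for Ndufa6 (-0.61 with it), -0.13 for Cox6a1 (-0.10 with it) and -0.25 for Ndufa11 (-0.30 with it). For Cox6a1 the Grd middle difference was -0.05 without the array (limma adjusted p = 0.0954) and -0.03 with it (adjusted p = 0.425).

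Ligands differed from the mean of the other 4 by the limma contrast itself. In the middle window the number of the 74 genes that differed in either direction was 35 with Lps, 38 with Pic, 52 with Pam, 11 with Cpg and 18 with Grd. The shares of all items called higher and lower were 18.2% and 33% with Lps, 28.3% and 28.5% with Pic and 38.5% and 18.9% with Pam. They were 11.1% and 15.2% with Cpg and 18% and 13.3% with Grd. Both directions together, the members exceeded all items with Pam only. In the late window the number was 30 with Lps, 55 with Pic, 66 with Pam, 5 with Cpg and 21 with Grd. The late shares of all items, higher and lower, were 13.9% and 15.5% with Lps, 28.6% and 34.2% with Pic and 27.5% and 19.5% with Pam. They were 5.16% and 5.54% with Cpg and 18.2% and 14.7% with Grd. Here the members exceeded all items with Lps, Pic and Pam. These contrasts share arrays, so a gene that is high with 1 ligand counts also against the others.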

How the results depend on the processing

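Middle and late falls kept their direction in the counts below. With arrays centred on their median, early counts became 81 higher and 68 lower, and 41 were higher in the middle window, where 43 were lower with Lps, 31 with all ligands and 21 of the complex IV pairs. Centred contrasts of 1 ligand against the others gave, in the middle window, 11 higher and 8 lower with Lps, 8 higher with Pic, 22 higher with Pam, 11 higher and 2 lower with Cpg and 2 higher with Grd, and late 1 higher with Cpg and 2 with Grd. Centred, 12 were higher late than in the middle window and 8 rose in Control. Centred shares over all items are not given for the ligand contrasts, late against middle or the Control trend. Array weights gave 25 higher early, in the middle window 11 higher and 8 lower with Cpg and 14 higher with Grd, and late 6 higher with Cpg and 9 with Grd. A line fitted to Control gave 18 higher early and 25 late. Control of the same times, with fewer arrays, gave 1 higher and 72 lower early and 8 higher in the middle window. Without 12 h in the late window Lps was higher for 8 and lower for 14 than the others, and Cpg lower for 0 (limma; 2 at an unadjusted p under 0.05).

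Signs reversed for 22 gene values. With centred arrays these were, in the middle window, Cox5a (0.0732 with Lps, 0.0391 with Cpg), Cox5b (0.0043 with Lps, 0.0064 with Cpg), Cox6a1 (0.0883 with Lps), Cox7a2 (0.0178 with Cpg), Ndufaf3 (0.0169 with Lps) and Ndufb4 (0.0084 with Lps). With the mean of probe sets they were Ndufa12 (0.0922 with Lps, 0.0203 with Pam, 0.11 with Cpg, 0.0083 with Grd) and Ndufs4 (-0.0336 with Lps, -0.0172 with Cpg). With Control of the same times they were Atp5g1 late with Pam (0.13), Ndufaf4 early with Pic (-0.02) and Grd (-0.0968) and Ndufb9 late with Pic (0.0192). With a line fitted to Control they were Ndufaf4 late with Lps (0.0021) and Grd (0.0536), and without 12 h Ndufc2, a complex I subunit, with Cpg (0.0463) and Grd (0.0161). The cause was not tested. Of 4863 gene values under alternatives, 4560 kept direction and call, 147 lost and 134 gained the call.

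Leaving out each array in turn, calls ranged from 34 to 42 higher and 118 to 145 lower early, 11 to 14 and 299 to 316 in the middle window, and 14 to 19 and 280 to 289 late. Lower in the middle window were 65 to 68 with Lps, 65 to 66 with Pic, 45 to 55 with Pam, 57 to 62 with Cpg, 63 to 65 with Grd and 44 to 52 with all, and late 59 to 61, 67 to 67, 41 to 45, 54 to 58, 56 to 61 and 40 to 45 in the same order. By complex, lower pairs in the middle window were 150 to 155 in complex I, 27 to 29 in III, 35 to 41 in IV and 69 to 75 in the ATP synthase, and late 135 to 140, 27 to 28, 35 to 40 and 77 to 78. Against the other ligands, middle counts were 2 to 3 higher and 25 to 34 lower with Lps, 8 to 13 and 20 to 26 with Pic, 41 to 52 and 2 to 2 with Pam, 4 to 8 and 3 to 5 with Cpg and 3 to 9 and 7 to 12 with Grd. Late counts were 4 to 5 and 21 to 26 with Lps, 7 to 9 and 44 to 47 with Pic, 62 to 66 and 1 to 1 with Pam, 0 to 2 and 3 to 8 with Cpg and 3 to 8 and 14 to 18 with Grd. Late against middle gave 20 to 23 higher and 44 to 45 lower, and the Control trend 0 to 2 higher and 0 to 3 lower. Single arrays moved small counts by over 1.5 times. In the middle window the higher count became 8 without the second Pic array of 4 h, 4 without the first Cpg array of 8 h or the second of 4 h, and 3, 4, 5 and 5 without the Grd arrays first of 6 h, first of 8 h, second of 4 h and second of 8 h. Late, Cpg had 1 higher without its second 12 h array, 0 higher and 8 lower without its 16 h array and 0 higher and 5 lower without its 24 h array (3 and 4 higher in limma at an unadjusted p under 0.05), and Grd had 3 higher without the second Pam array of 12 h, 8 without the Cpg array of 24 h and 3 without its own first array of 24 h. The Control trend gave 0 higher without the 1, 4, 8, 12 or 24 h array and 2 without the 0 or 6 h array, and 0 lower without the 1, 2, 4, 8, 12 or 24 h array and 1 without the 0 h array. Where these were 0, limma gave 9 to 13 higher and 6 to 12 lower at an unadjusted p under 0.05.

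Arrays share replicate numbers across groups. Over 903 pairs of groups the deviations of same-numbered arrays had correlations of -0.33 to 0.35, with a median of 0.008 and 157 pairs over 0.1. No pairing common to all groups was seen. Pairing within a ligand or between nearby times was not tested, and this check cannot exclude it. With the replicate block 302 pairs were lower in the middle and 281 in the late window, and all 48 counts stayed within 1.5 times. Intensities at 20 hold only an upper limit, which touches Cox6a2 and Cox8c.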

Other observations

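Calls in the early window went in both directions, with 130 pairs lower and 38 higher. These are 35.1% and 10.3% of the pairs, against 30.2% and 16.9% of all items. With centred arrays 68 were lower and 81 higher. Cox8a, the smallest subunit of complex IV, was lower with all ligands in the early window, by -0.32 with Lps, -0.27 with Pic, -0.30 with Pam, -0.29 with Cpg and -0.20 with Grd. Its intensity was 1469, 1531 and 1699 (lowest, median and highest) on the early Lps arrays, against 1648, 2009 and 2243 in Control, and the arrays overlapped. Ndufa3 was lower as well, by -0.27 with Lps, -0.24 with Pic, -0.40 with Pam, -0.17 with Cpg and -0.28 with Grd. The assembly factor gene Ndufaf3 was higher early with Lps (0.30 ± 0.05, limma adjusted p = 7.02e-06), Pic (0.20 ± 0.05), Pam (0.21 ± 0.05) and Grd (0.21 ± 0.05), and at 0.12 ± 0.05 with Cpg, not called. Uqcrc2 was higher early with Lps (0.26 ± 0.04), Pic (0.20 ± 0.04) and Cpg (0.11 ± 0.04), and Ndufb9, a complex I subunit, with Lps (0.17 ± 0.04) and Pic (0.21 ± 0.04). Cox5a, the complex IV subunit that lies on its inner side, was higher early with Lps (0.13 ± 0.04), Pic (0.17 ± 0.04) and Grd (0.13 ± 0.04) before its late falls. The early counts depend on the scaling, and these examples were picked after their values were seen.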
